A study of Homo sapiens with 2 samples.

Results

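Translation initiation and elongation factors were taken as every gene of the RBM47 binding table whose symbol began with EIF1 to EIF6, EEF1 or EEF2, with the Argonaute genes once named EIF2C and the eIF2alpha kinases left out. The rule found 718 clusters in 40 genes, out of 233546 clusters and 7712 genes in all. A cluster is a stretch of genome with overlapping tags, and a tag is a collapsed sequencing read of RNA that was crosslinked to the protein. The data came from HITS-CLIP, in which cells are irradiated with ultraviolet light and the RNA bound to a protein is sequenced after immunoprecipitation. Flag-tagged wild-type RBM47 was expressed from a doxycycline-inducible vector in MDA231-BrM2a cells, a non-clonal derivative of the breast cancer line MDA-MB-231 selected for brain metastasis. Cells received 1 ng/ml doxycycline for 3 days, and 2 replicates of this single group were sequenced. No library from cells without the tagged protein and no RNA abundance was analysed here, so more binding and more RNA cannot be told apart for any gene below. Nothing in the labels says that the replicates came from separate cultures.

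Initiation factors bring the small ribosomal subunit to the start codon of an mRNA. eIF4F binds the cap and unwinds the leader, eIF3 and the eIF2 ternary complex load the initiator tRNA, and eIF5 and eIF5B release eIF2 and join the large subunit. Elongation factors then deliver aminoacyl-tRNAs and move the ribosome along. RBM47 is an RNA-binding protein with RNA recognition motifs, known as a cofactor of the RNA-editing enzyme APOBEC1.

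The deposited clusters held 999047 tags of replicate 1 and 3489697 tags of replicate 2, so that replicate 1 contributed 22.3% of all tags. All clusters had at least 5 tags in total and at least 1 tag from each replicate. Unless another minimum is given, values below are for clusters with at least 10 tags. The mesenchymal marker genes VIM, CD44, CAV1 and AXL had between 2335 and 8404 tags each. Of 6 luminal epithelial markers, EPCAM was listed, with 11 tags, and ESR1, PGR, GATA3, CDH1 and KRT18 had no listed cluster. Tags depend on binding as well as on RNA, so a marker without a listed cluster cannot be called unexpressed.

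Many mRNAs of the translation machinery begin with a pyrimidine tract at the 5' end, known as a 5'TOP, through which mTOR signalling controls their translation. The start sites of the translation factor genes are shown because they group the members by a feature that the binding data did not use. RefSeq start sites (GRCh38.p14) were available for 34 of the 40 genes. A tract was called where the start base was C and was followed by at least 4 further C or T bases on the gene's strand. It was present in 9 of the 34 genes (26.5%), against 7.59% of the 6261 genes of the binding table with a RefSeq start site and 5.14% of all 27305 genes with one. In the windows below, from 10 bases before the start site to 15 bases from the start base on, the capitals mark the tract, and EIF5A2 is an example without one.
EEF1A1, chr6:73521018-73521042, minus strand: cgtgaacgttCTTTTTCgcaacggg
EEF2, chr19:3985449-3985473, minus strand: cgtcagcgttCTCTTCCgccgtcgt
EIF2S3, chrX:24054946-24054970, plus strand: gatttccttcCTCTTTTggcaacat
EIF4A2, chr3:186783567-186783591, plus strand: gcgccgctgtCTTTTCagtcgggcg
EIF5A2, chr3:170908623-170908647, minus strand: cccgtctcttggaactgccgcggcc

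The genes with a tract held from 0 to 1172 tags, with a median of 233 tags per gene. EIF4A2 and EIF2S3 lay at the top of that range, whereas EEF2, EIF3F and EIF3K lay at the bottom. The 25 genes without a tract held from 0 to 4532 tags, with a median of 97. Over all genes of the table the median was 52 tags both with and without a tract. Of the translation factors usually counted as 5'TOP mRNAs, 10 were listed, and 4 of them (EIF3E, EIF3H, EEF1A1 and EIF4B) had more than 100 tags, about the 39.9% found over all genes. Their medians went the other way from those of the tract groups. The 10 genes had a median of 55.5 tags, and the 30 outside the list had a median of 101. Of those 30 genes, 15 had more than 100 tags. EIF3E and EIF3H were among the genes without a RefSeq start site here.

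A cluster of at least 10 tags was present in 35 of the 40 genes, against 5600 of all 7712 genes. More than 100 tags were held by 19 of the 40 genes (47.5%), against 39.9% of all genes. EEF1E1, with 104 tags, was just above this limit, and EEF1E1-MUTED and EIF1B, with 98 and 97 tags, were just below it. The median translation factor gene held 97.5 tags and the median over all genes was 49 tags. In all, 329 translation factor clusters (45.8%) passed the minimum, 91 of them with at least 30 tags and 26 (3.62% of 718) with at least 100 tags. Of all 233546 clusters, 94996 (40.7%) passed it, 22118 had at least 30 tags and 4509 (1.93%) had at least 100 tags. With replicate 2 left out and the same minimum applied to replicate 1 alone, 67 translation factor clusters were left. More than 100 tags were then held by 4 of the 40 genes, against 796 of all 7712 genes. The higher proportion among translation factors was therefore not seen in replicate 1 alone.

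Tags were unevenly shared among the members. EIF4G2, a relative of eIF4G that lacks the binding site for the cap-binding protein eIF4E and is known for cap-independent initiation, held 4532 tags, or 32.9% of all translation factor tags. It ranked 69 of 7712 genes by tags. In replicate 1 EIF4G2 had 921 tags and in replicate 2 it had 3613 tags, or 0.979 ± 0.0802 (SD, n = 2) tags per 1000 tags of the replicate. Both replicates placed it well above every other member. EIF5, the GTPase-activating protein of eIF2, followed with 1188 tags at 0.254 ± 0.0375 tags per 1000 (SD, n = 2). EIF4A2, an RNA helicase of eIF4F, had 1172 tags at 0.243 ± 0.0463 per 1000 (SD, n = 2), and EIF2S3, the eIF2 subunit that binds GTP and the initiator tRNA, had 951 tags at 0.215 ± 0.00628 per 1000 (SD, n = 2). The replicates of EIF5 and EIF4A2 overlapped, whereas both replicates of EIF5 lay above both of EIF2S3. These 4 genes together held 56.9% of the members' tags, and the 10 genes with the most tags held 79.2%.

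**Figure D1:**
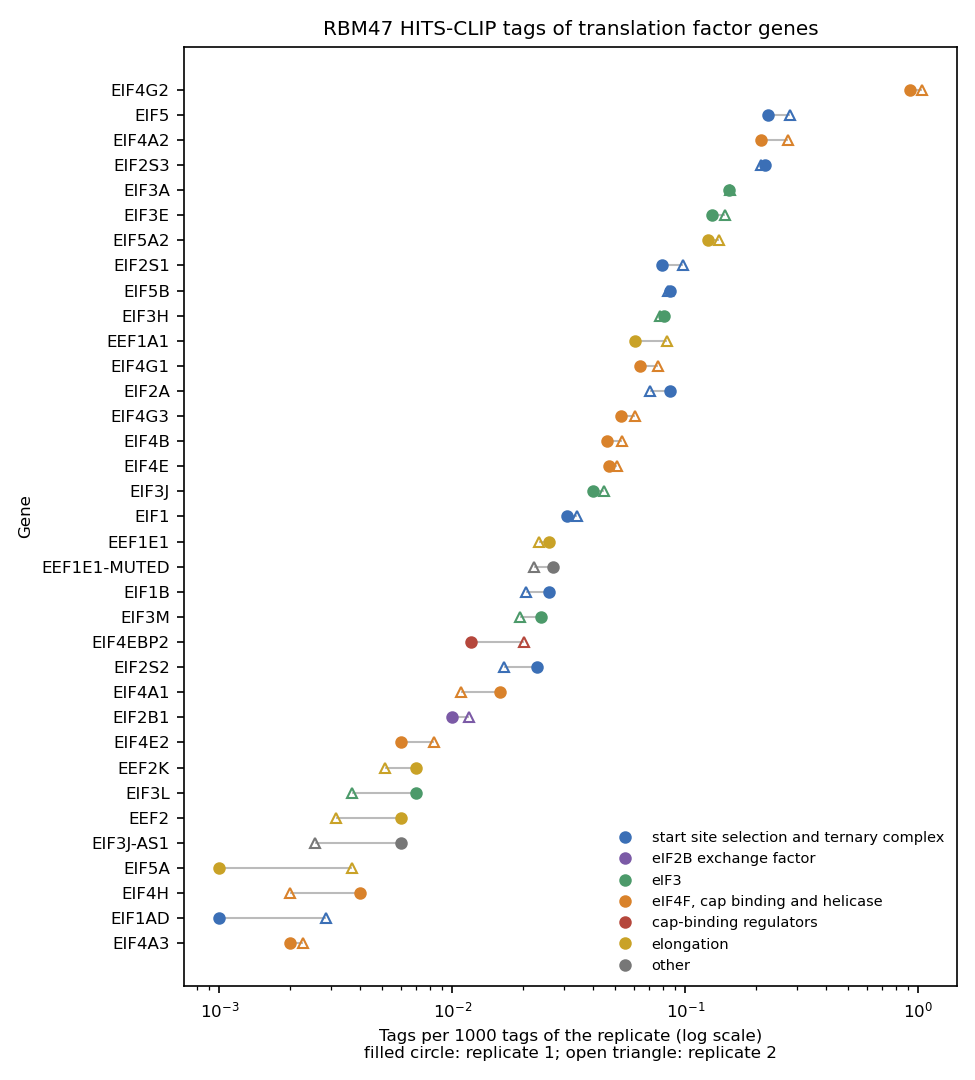
Tags per 1000 tags of the replicate (log scale) for the 35 translation factor genes with a cluster of at least 10 tags, ordered by total tags; filled circles are replicate 1, open triangles replicate 2, and colours give the role of the factor. EIF4G2 lies apart at about 1 tag per 1000 in both replicates, and the distance between replicates widens among the genes at the bottom.

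Across the 19 genes with more than 100 tags, the SD over the replicates was between 0.534% and 21.6% of the mean, with a median of 8.20%. Over the 40 genes, the tags of the replicates were related with Spearman's rho of 0.978, as a description over genes that share the same libraries. Over all 7712 genes rho was 0.982. Single clusters agreed less, with a rho of 0.559 over the 718 translation factor clusters and 0.447 over all clusters.

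Because long mRNAs can hold more sites, exon tags were also divided by the length of the MANE Select transcript, the reference transcript of the current annotation. On this scale EIF4G2 had 1195 exon tags per kb of mRNA, rank 37 of 7126 genes with a length. EIF4A2 had 541 per kb, EIF5 had 208, EIF3E had 177 and EIF5A2 had 110 exon tags per kb. The median of the 38 members with a length was 32.3 exon tags per kb, and that of all genes was 9.82. EIF2S3 fell from rank 684 by tags to rank 1589 per kb of mRNA, since most of its tags were in introns.

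The scaffold and helicase genes of eIF4F and their close relatives differed from each other. EIF4G2 had 0.258 ± 0.0211 (SD, n = 2) exon tags per 1000 tags and kb, EIF4G1 had 0.0130 ± 0.00159 and EIF4G3 had 0.00600 ± 0.000515. The replicates of these 3 genes did not overlap. The EIF4G3 value leaves out clusters with the symbol HP1BP3, of 17 to 54 tags each, that lay among its own on the same strand. EIF4A2 had 0.115 ± 0.0140 per 1000 tags and kb, its close relative EIF4A1 had 0.00765 ± 0.00206 and EIF4A3, a helicase of the exon junction complex, had 0.000851 ± 8.14e-05 (SD, n = 2 each). The cap-binding protein EIF4E had 0.0153 ± 0.000689 and EIF4E2, a relative with weaker cap binding, had 0.00740 ± 0.00169, and EIF4E3 had no listed cluster. The EIF4E value leaves out 54 of its 223 tags, in clusters whose mixed labels include intron. EIF5A2 had 0.0239 ± 0.00181, whereas EIF5A, the widely expressed form of this hypusine-carrying elongation factor, had 0.00187 ± 0.00152. EIF1B and EIF1, which guard start codon selection, had 0.0236 ± 0.00386 and 0.0139 ± 0.000929. EEF1A1, which delivers aminoacyl-tRNA to the ribosome, had 0.0205 ± 0.00444, and its tissue-restricted relative EEF1A2 had no listed cluster. Of the eIF4E-binding proteins, EIF4EBP2 alone was listed under its own symbol, at 0.00216 ± 0.000787 per 1000 tags and kb, and the readthrough transcript ANKHD1-EIF4EBP3, which the rule leaves out, had 39 clusters. How the aligner treated reads that match more than 1 gene copy is not given in the sources used here, and RefSeq lists 50 pseudogenes of EEF1A1. The effect of reads shared between gene copies on these differences was not tested.

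By location, the members' tags were spread differently from those of other genes. Clusters labelled only as coding sequence (CDS) held 37.3% ± 0.802 (SD, n = 2) of translation factor tags and 10.0% ± 0.173 of the tags of all other genes. Clusters labelled only as 3'UTR held 28.4% ± 0.246 against 47.2% ± 0.362. Introns held 12.9% ± 0.741 against 18.9% ± 0.538. The difference was 27.3 percentage points for CDS and -18.7 points for 3'UTR, and each was larger than the spread between the replicates. No test over genes or clusters was made, because clusters of a gene share their source. EIF4G2 carried much of this pattern. Without it, CDS clusters held 25.6% ± 0.172, 3'UTR clusters 40.2% ± 0.192 and introns 19.1% ± 0.968 (SD, n = 2). The 3'UTR difference then shrank to -6.94 points and the CDS difference to 15.6 points, and the intron share no longer lay below that of other genes. With replicate 2 left out, the 3'UTR difference was -31.3 points. Cytosolic ribosomal protein genes had a CDS share of 17.2% ± 3.53 and a 3'UTR share of 45.2% ± 2.29 (SD, n = 2).

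Seen gene by gene, the CDS pattern was narrower. Over the 35 members with a cluster of at least 10 tags, the median CDS share was 4.72% of a gene's tags, against 0% over all such genes, and 11.4% of members had a CDS share above 50%, against 6.11%. Among members with more than 100 tags, the median CDS share was 22.7% of a gene's tags, against 5.65% over all genes with more than 100 tags. A CDS share above 50% was found in 4 of these 19 genes (21.1%), against 4.68% of all genes with more than 100 tags. The 5 highest were EIF3A at 66.8%, EEF1A1 at 63.2%, EIF4G2 at 62.3%, EIF5B at 60.4% and EIF4G1 at 48.0%. At the other end, all tags of EIF5A2 and EIF3J lay in the 3'UTR. The largest cluster lay in the 3'UTR in 21 of 35 genes, across the CDS and 3'UTR border in 5 and in the CDS in 3. The matching count over all genes is not given here. A 3'UTR share above 50% was found in 57.1% of the 35 members, against 61.7% of all genes with a cluster of at least 10 tags.

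**Figure D2:**
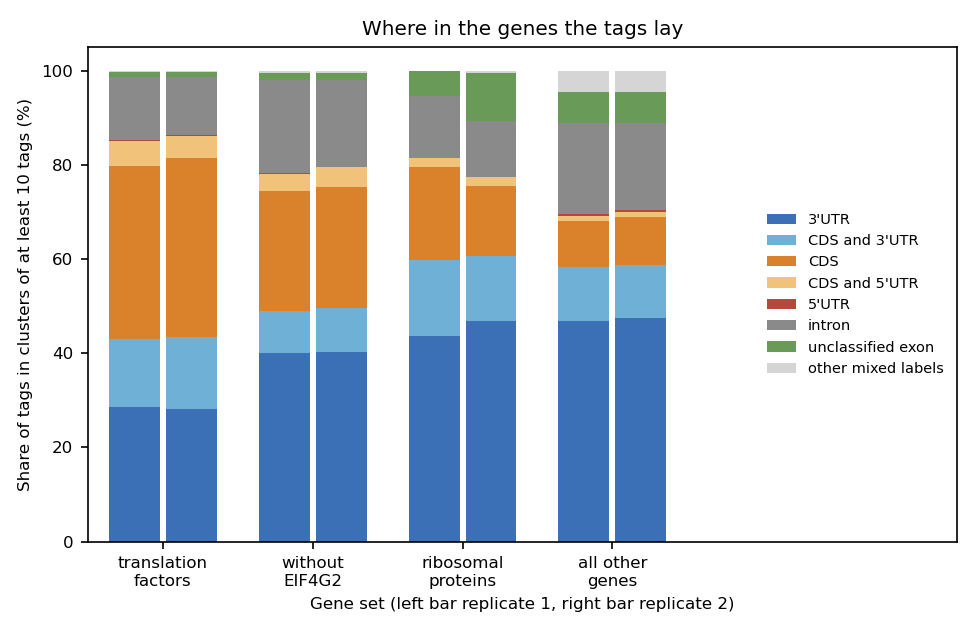
Share of tags (%) by location label in clusters of at least 10 tags, for the translation factors, the same without EIF4G2, cytosolic ribosomal proteins and all other genes; the left bar of each pair is replicate 1 and the right bar replicate 2. The orange CDS part is 37.3% in translation factors, 25.6% without EIF4G2 and 10.0% in all other genes.

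EIF4G2 had clusters spread along its coding sequence and 3'UTR. Its 26 clusters lay on chr11 (hg18, minus strand), and the largest, at chr11:10775273-10776042, spanned the end of the CDS and the 3'UTR with 1238 tags, 240 in replicate 1 and 998 in replicate 2. The 3'UTR cluster next to it, at chr11:10775173-10775268, added 164 tags. Upstream of these, 15 CDS clusters held from 7 to 422 tags with a median of 111, and 9 of them had at least 100 tags. The largest of these was at chr11:10778214-10778477, with 83 and 339 tags in replicates 1 and 2. The densest was at chr11:10780168-10780334, with 97 and 318 tags and 2.50 tags per nt. Toward the 5' end, 7 clusters labelled as both CDS and 5'UTR held only 31 to 67 tags each, and 2 clusters in the 5'UTR held 6 tags each. No EIF4G2 cluster was labelled as intron. Of the 10 largest clusters among the members, 7 were in this gene.

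**Figure D3:**
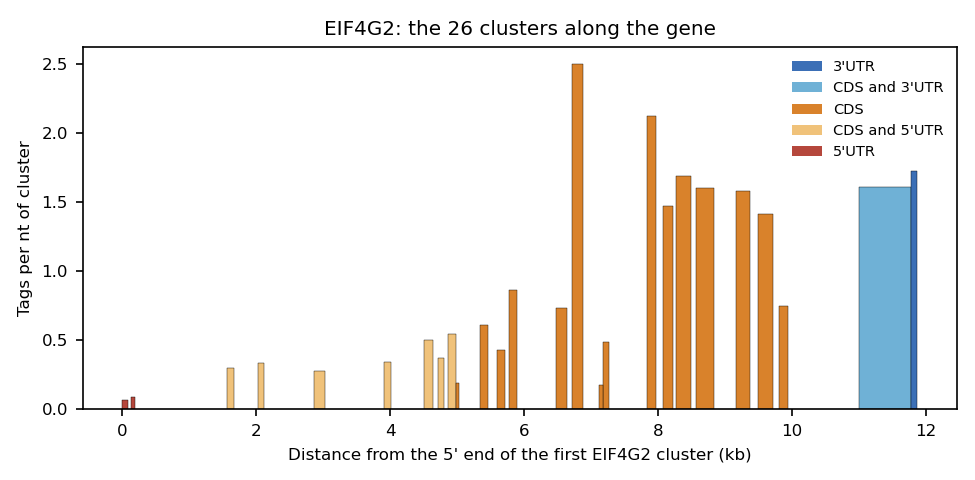
Density of tags (tags per nt of cluster) against the distance in kb from the 5' end of the first of 26 EIF4G2 clusters, each bar being a cluster drawn to its width and coloured by label. Density is low in the 5'UTR clusters on the left, peaks at 2.50 tags per nt within the CDS and varies between neighbouring CDS clusters, with 13 tags in the 74-nt cluster that follows the peak.

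Of the other genes grouped with eIF4F, EIF4G1, the main scaffold of the cap complex, held 329 tags. Its largest cluster, at chr3:185521846-185522190 (hg18), was labelled CDS and 5'UTR and had 14 and 65 tags in replicates 1 and 2. EIF4G3 had 254 tags in 17 clusters, and its 68 intron clusters, most of them below the minimum, had 5 to 15 tags each. Among its exonic clusters lay 4 clusters on the same strand that carried the symbol HP1BP3, with 17 to 54 tags each, which were not counted for EIF4G3. EIF4B, which stimulates the helicase, had 233 tags, of which 90.1% were in the 3'UTR. EIF4E had 223 tags, and a single 3'UTR cluster at chr4:100020952-100021048 held 42.2% of them, with 23 and 71 tags. EIF4E2 had 35 tags and EIF4A1 had 54 tags. EIF4H and EIF4A3 had 1 cluster of at least 10 tags each, with 11 and 10 tags.

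EIF4A2 had 15 clusters on chr3 (hg18, plus strand). The CDS and 3'UTR cluster at chr3:187989603-187989939 had 62 and 253 tags in replicates 1 and 2, and the 3'UTR cluster at chr3:187990137-187990377 had 45 and 187 tags. Between them and the start of the gene, 5 CDS clusters held 59 to 90 tags each. A single intron cluster of 92 nt, at chr3:187987254-187987346, had the highest density in the gene, 1.65 tags per nt, with 12 tags in replicate 1 and 140 tags in replicate 2. Introns of EIF4A2 are known to host small nucleolar RNAs, which guide the chemical modification of ribosomal RNA. Of the 14 such RNAs known in introns of translation factor genes, the table named SNORD2 alone. Its cluster at chr3:187985276-187985420 lay between 2 exonic EIF4A2 clusters and had 10 and 108 tags. SNORD2, of 69 nt, is shown from GENCODE because this stretch of the host gene was among its heavily tagged ones, with the first TGATG (C box) and the last CTGA (D box) in capitals. TGATG followed by CTGA was found in 71.5% of 390 SNORD transcripts of GENCODE, read on the transcript strand.
SNORD2: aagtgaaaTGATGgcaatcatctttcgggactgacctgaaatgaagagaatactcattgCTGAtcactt
Whether the 92-nt intron cluster lies on a small RNA was not determined, since no hg18 genome was used here.

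EIF2S3 stood out by its introns. Of its 951 tags, 722 tags (75.9%) lay in 11 intron clusters, and all 14 intron clusters fell within 2905 nt of chrX:24001749-24004654 (hg18, plus strand), just before the 3'UTR. The largest of them, at chrX:24002323-24002864, had 45 and 193 tags in replicates 1 and 2, and its neighbour at chrX:24002068-24002319 had 35 and 63 tags. When clusters less than 50 nt apart were joined, the first 4 intron clusters formed a stretch of 1115 nt with 454 tags. The 3'UTR held 218 tags, 104 of them at chrX:24005680-24006009, and the CDS held 11. A CDS cluster of 8 tags lay between the intron and 3'UTR clusters, and the upstream part of the gene had 4 small CDS clusters of 5 to 11 tags.

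**Figure D4:**
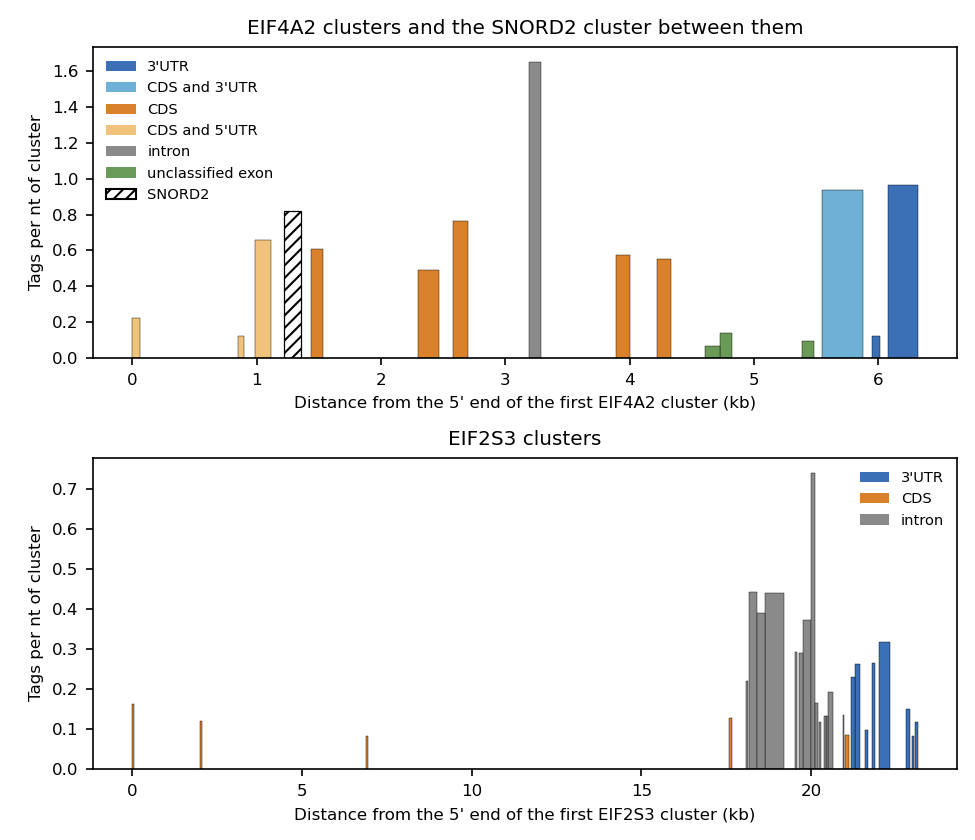
Tags per nt of cluster against the distance in kb from the 5' end of the first cluster of EIF4A2 (top, with the SNORD2 cluster hatched) and EIF2S3 (bottom), each bar being a cluster drawn to its width. The intron cluster of EIF4A2 reaches 1.65 tags per nt, and the 14 intron clusters of EIF2S3 are packed into 2905 nt beside the 3'UTR.

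Among the other genes grouped under start site selection and the ternary complex, 10 in all with a median of 238 tags, EIF5 was bound mainly in its 3'UTR. The 3'UTR held 64.7% of EIF5 tags, and its largest cluster, at chr14:102878419-102878760 (hg18, plus strand), had 31 and 170 tags. The cluster over the end of the coding sequence, at chr14:102877062-102877348, had 36 and 133 tags. EIF2S1, the eIF2 subunit whose phosphorylation shuts down initiation under stress, had 413 tags, with 114 at the end of its CDS. EIF2S2, the beta subunit of eIF2, had 81 tags. EIF5B, the GTPase of subunit joining, had 374 tags, of which 60.4% were in the CDS in clusters of at most 37 tags. EIF2A, an alternative carrier of initiator tRNA, had 326 tags, of which 67.2% were in introns, and a single intron cluster at chr3:151764903-151765212 gave 118 of them, 28 in replicate 1 and 91 in replicate 2. EIF1 had 150 tags, EIF1B had 97 and EIF1AD had 11. Of the eIF2B exchange factor, which recharges eIF2 with GTP, EIF2B1 was listed, with 51 tags.

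The 9 listed eIF3 genes had a median of 91 tags. EIF3A, the large scaffold subunit, had 692 tags, with 31 and 96 tags in its largest cluster at chr10:120785372-120785612 (hg18, minus strand), over the end of the CDS, and 462 tags in CDS clusters. EIF3E had 638 tags, 287 of them in 8 CDS clusters and 280 in introns. EIF3H had the most clusters of all members, 103, of which 93 lay in introns with a median of 6 tags, and 350 tags in clusters of at least 10 tags, 61.7% of them in introns. EIF3J, a loosely held subunit, had 196 tags, EIF3M had 91 tags and EIF3L had 20 tags. EIF3J-AS1, a noncoding transcript that the rule takes in by its symbol, had 14 tags. The intron clusters of EIF3E and EIF3H were small and many, with no intron cluster above 28 tags in either gene, unlike the intron clusters of EIF2S3 and EIF2A, which reached 238 and 118 tags. EIF3B, EIF3F and EIF3K had no cluster of at least 10 tags.

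In the elongation group, EIF5A2 led with 611 tags, and its largest cluster, at chr3:172091118-172091665 (hg18, minus strand), had 28 and 107 tags. It was part of 5 clusters that joined, at gaps under 50 nt, into a stretch of 1285 nt with 310 tags. EEF1A1 had 348 tags, and 48.6% of them came from a single CDS cluster of 71 nt at chr6:74285775-74285846, with 25 tags in replicate 1 and 144 tags in replicate 2. The only other CDS cluster of EEF1A1 was 39 nt long, with 51 tags, and the 3'UTR held 128 tags. EEF1E1, a scaffold protein of the aminoacyl-tRNA synthetase complex, had 104 tags, and the readthrough transcript EEF1E1-MUTED had 98. Of the latter, 81 tags lay in 5 3'UTR clusters at chr6:7959356-7960847 (hg18), interspersed with clusters assigned to TXNDC5 and BLOC1S5, and 17 tags lay in an intron cluster among those of EEF1E1. EEF2, which moves the ribosome along the mRNA, had 17 tags, EIF5A had 14 and the kinase EEF2K had 25. EEF1D and EIF1AX had no cluster of at least 10 tags. EIF4EBP2, which holds back eIF4E, had 82 tags, all of them in the 3'UTR.

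Of the 66 protein-coding RefSeq genes whose symbols match the rule, 38 were listed under a member symbol and 2 under an older name outside the rule. The 26 genes without a listed cluster included EEF1B2, EEF1G, EIF2B2 to EIF2B5, EIF3C, EIF3D, EIF3G, EIF3I, EIF4EBP1 and EIF6. Without a measure of RNA these genes cannot be called unbound.

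The split of tags between the replicates was compared with that of the whole table. Each cluster was tested against the replicate 1 share of the whole table with a two-sided exact binomial test, adjusted by Benjamini-Hochberg over all clusters, which compares these 2 libraries and not conditions. Over all clusters deposited, 0.0111% passed an adjusted p of 0.05, and 0.00985% did so with the lower share in replicate 1. Of the 718 translation factor clusters, 1 passed, the intron cluster of EIF4A2, in which replicate 1 had 7.89% of the tags (exact binomial test, adjusted p = 0.0308). The median translation factor cluster held 9 tags, and clusters this small hold too few tags to pass. Not passing therefore does not show that the replicates agreed at a cluster. At an unadjusted p under 0.05 there were 28 translation factor clusters (3.90%), against 3.04% of all clusters. With the expected share taken from the median cluster, 20.8%, the call was lost (exact binomial test, adjusted p = 0.196). It was also lost with a beta-binomial test that allows for extra spread (adjusted p = 0.281). Clusters were listed only with a tag from each replicate, and the effect of this filter on the expected share was not tested. Of all clusters with at least 30 tags, 62.9% had a replicate 1 share below that of the whole table. The SNORD2 cluster had a replicate 1 share of 8.47% (95% Wilson interval 4.67% to 14.9%, counting error only) and did not pass (exact binomial test, adjusted p = 0.491).

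Summed per gene, 1.7% of all genes passed, and EIF4A2 was again the 1 translation factor gene of 40, with 217 tags in replicate 1 and 986 in replicate 2 over all its clusters (18.0% in replicate 1, exact binomial test, adjusted p = 0.0281). Without the intron cluster, the share was 19.5% (adjusted p = 0.404), and with the beta-binomial test the adjusted p was 1. EIF4G2 had a replicate 1 share of 20.3% (exact binomial test, adjusted p = 0.0806). A low replicate 1 share was also seen in clusters with a small nucleolar RNA symbol, a set chosen after its values were seen. Of 12 such clusters with at least 30 tags, 11 had a replicate 1 share below that of the whole table, against 62.9% of all clusters with at least 30 tags. SNORD110, at 8 and 98 tags, and SNORD18B, at 2 and 58 tags in replicates 1 and 2, were among them, and no test was made over this set. SNORD14D, at 25.8%, lay above the share of the whole table, and a SNORA8 cluster, at 22.0%, lay only just below it. None of the 27 clusters with such a symbol passed by itself, the lowest adjusted p being 0.316 (exact binomial test, SNORD18B). Whether the libraries differed at small RNAs as a set was not tested.

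**Figure D5:**
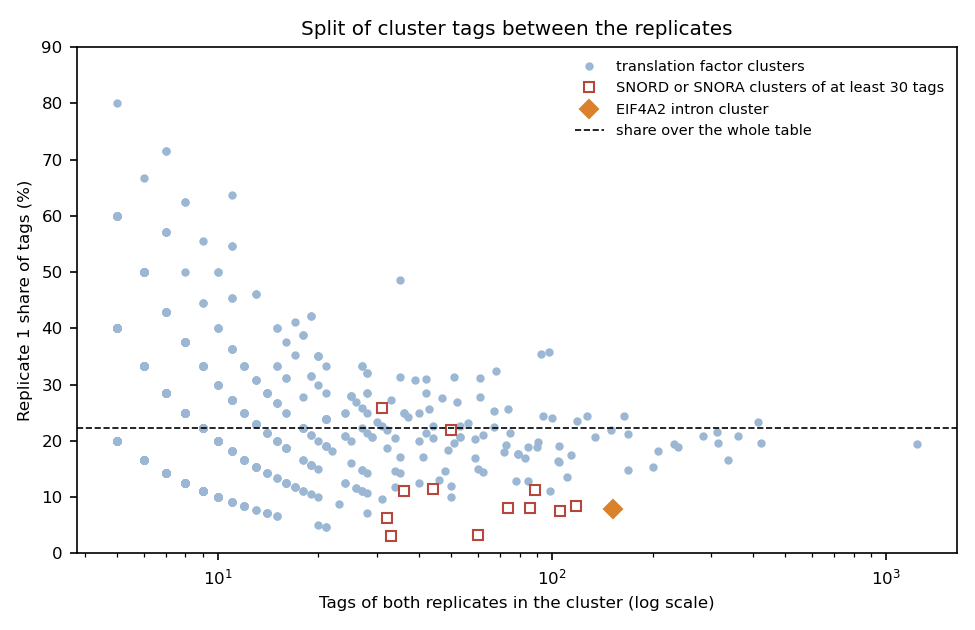
Replicate 1 share of tags (%) against the tags of both replicates (log scale) for the 718 translation factor clusters (circles), the EIF4A2 intron cluster (diamond) and the 12 clusters of at least 30 tags with a small nucleolar RNA symbol (squares); the dashed line is the share over the whole table, 22.3%. The diamond, at 7.89% and 152 tags, has a share within the range of the squares but more tags than any of them. Its share is below that of the other translation factor clusters of similar size.

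Other genes of translation were counted by lists written from general knowledge, beside the 39.9% of all genes that had more than 100 tags. Symbols without a listed cluster were left out of these counts. Of the release, recycling and reinitiation genes, 5 of 6 had more than 100 tags, led by the release factor GSPT1 with 914. Of the poly(A)-binding protein genes and their partners, 3 of 4 (75%) did, led by PABPC1 with 1466 tags. Of the eIF2alpha kinases and phosphatase subunits, 2 of 6 did, EIF2AK2 with 375 tags and PPP1R15B, a subunit of the phosphatase that restores eIF2, with 2483 tags, more than any listed translation factor except EIF4G2. Of the aminoacyl-tRNA synthetases, 9 of 16 (56.25%) had more than 100 tags, led by NARS with 839. In the signalling list 3 of 6 genes (50%) did, led by LARP1, which binds 5'TOP mRNAs, with 738 tags. Of BZW1, BZW2 and DHX29, BZW1 had 368 tags and the others stayed at or below 61 tags, and EEFSEC had no listed cluster. Cytosolic ribosomal protein genes were lower, with 45 listed genes, 6 of them (13.3%) above 100 tags, and a median of 18 tags per gene.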

How the data were processed

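RBM47 HITS-CLIP was performed in duplicate. Per the labels and the study's methods, the authors collapsed reads by their degenerate barcodes, aligned them and grouped tags into clusters found in both replicates. The submitters' processing notes name Novoalign and the hg18 build. The deposited table gives tag counts per cluster for each replicate and in total, with gene, location label and position. In 84 translation factor clusters the replicate counts exceeded the total by 131 tags together. Lengths are end minus start, since the coordinate convention is not given in the sources used here.

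Totals were summed per gene over clusters of at least 10 tags. Shares were computed per replicate and given as mean ± SD. The split between replicates was tested with exact binomial tests in scipy 1.17.1 with statsmodels 0.14.6 (Benjamini-Hochberg). A check on simulated counts placed changes only in clusters of at least 100 tags and had no extra spread between replicates. It therefore cannot show how the test behaves with such spread. Entrez IDs of all 40 genes matched RefSeq. The genes named were the 25 with the most tags, the 10 largest clusters and the largest of each role, the 5 highest CDS and intron shares, called members, paralogue sets and genes without a cluster of 10 tags. Members and lists were chosen with earlier results of these data known. Alternative minimums, replicates left out, label rules and tests were tried. A further mesenchymal marker is not reported here.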

Additional observations from a re-analysis of the deposited data

How the results depend on the processing

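No paired analysis was possible because only 1 group was sequenced. Depth limits the small clusters: replicate 1 is the shallower library, and the median ratio had no value at minimums of 30 or 100 tags or in replicate 1 alone, where the median gene had 0 tags. With all deposited clusters, 30 tags and 100 tags as the minimum there were 718, 91 and 26 translation factor clusters, against 329 at 10 tags, and without each replicate there were 67 to 260. At 100 tags 9 translation factor genes held more than 100 tags, against 1237 of all genes. Without replicate 2 there were 4, against 796 of all genes, and without replicate 1 there were 18, against 2614. The members' share of all tags was 0.385% and became 0.362%, 0.407% and 0.400% with these minimums, 0.397% to 0.409% without each replicate, 0.260% without EIF4G2 and 0.472% of tags in genes. The 3'UTR share was 26.7%, 23.7% and 17.0% at these minimums, 23.1% to 27.9% without each replicate, 27.9% without EIF4EBP2 and EEF2K, 40.2% without EIF4G2 and 43.6% over every label with 3'UTR. The 3'UTR difference was -14.0, -30.2 and -37.1 points, -31.3 to -21.1 without each replicate, -6.94 without EIF4G2 and -19.4 over every label. The CDS share was 33.8%, 40.1% and 42.8%, 38.7% to 40.3% without each replicate, 25.6% without EIF4G2 and 57.2% over every label. The CDS difference was 23.5, 32.9 and 38.8 points, 28.9 to 34.2 without each replicate, 15.6 without EIF4G2 and 34.7 over every label. The intron share was 20.1%, 10.0% and 9.17%, 11.0% to 11.3% without each replicate and 19.1% without EIF4G2. Neither the CDS nor the 3'UTR difference changed sign under these settings. The ratio of the medians was 1.99, 1.54 with all clusters and 2.34 without replicate 1. The count of called clusters fell to 0 with the expected share from the median cluster (18 in the whole table) and to 0 with the beta-binomial test (11), against 26 in the main test. The count of called genes was 3 with the median gene's share (EIF4A2, EIF4G2 and EIF5), 0 with the beta-binomial test (6 in the whole table against 131) and 0 for EIF4A2 without its intron cluster. With clusters of at least 30 tags, 50 clusters of the whole table passed. Settings that leave out EIF4G2 for CDS and introns, or the EIF4A2 intron cluster, were chosen after seeing the data. The cause of these shifts was not tested.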
